A study of Mus musculus with 2 samples.

Results

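Granzyme-expressing regulatory T (Treg) cells were chosen by their granzyme counts, as the cells in which the unique molecular identifiers (UMIs, 1 for each captured RNA molecule) of Gzma and Gzmb summed to at least 1. They numbered 241 of 7024 sequenced cells, 57 of 3634 control cells and 184 of 3390 rescued cells. Since these 2 genes chose the members, their own levels are given as a description. The control library held cells of 5 pooled C57BL/6 male mice of the genotype Foxp3DTR-GFP/y Cd4creERT2, whose Foxp3 allele is active from birth. The rescued library held cells of 4 pooled C57BL/6 male mice of the genotype Foxp3LSL/y Cd4creERT2, in which a floxed Thy1.1 stop cassette silences Foxp3 until Cre removes it. All mice also carried an R26 tdTomato reporter, had received 4-OHT (4-hydroxytamoxifen) at postnatal day 14 and were listed as 7 months old. The study places the sampling 7 months after 4-OHT. The Cre recombinase was a tamoxifen-dependent fusion driven by Cd4, and GFP+ Thy1.1- CD4+ Treg cells, negative for CD8 and NK1.1, were sorted from spleen and lymph nodes.

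Granzymes are serine proteases that cytotoxic lymphocytes store in granules on the proteoglycan serglycin and release together with the pore protein perforin. Granzyme B cleaves its substrates after aspartate and can set off apoptosis through caspases, whereas granzyme A cleaves after basic residues and acts largely outside the caspase cascade. Activated Treg cells can also express granzymes, which are counted among the ways in which these cells restrain or kill other immune cells. Gzma (ENSMUSG00000023132) lies on the reverse strand of chromosome 13 at 113093825 to 113100981 in GRCm38, and Gzmb (ENSMUSG00000015437) on the reverse strand of chromosome 14 at 56258838 to 56262260.

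Each group had 1 library of pooled mice, so no difference had a replicate check, no test was run, and each interval given is a 95% interval that covers counting error only. The control library held 15446201 UMIs with a median of 3739.5 per cell, and the rescued library 15537656 with a median of 3846.5. The libraries shared 3 cell barcodes, none of them in a granzyme-expressing cell. Gene levels are UMIs summed over a set of cells and scaled to a fixed total (CPM). A log2 ratio compares the CPM of a pair of such sets and is followed in parentheses by its interval. Genes past 2-fold are counted among the genes with at least 40 UMIs, observed plus expected, in the first set.

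Granzyme-expressing cells made up 1.57% (1.19 to 2.03) of the control and 5.43% (4.69 to 6.24) of the rescued library. When every cell was thinned to 1000 UMIs the shares were 0.605% (0.380 to 0.915) and 2.57% (2.06 to 3.16), so the rescued share was the higher at equal depth too. As a background, resting cells with at least 1 UMI each of Ccr7 and Tcf7, which should make little granzyme, were counted. Among control resting cells 9 of 1043 were granzyme-expressing, a share of 0.863% (0.395 to 1.63) at a median of 4160 UMIs. Among rescued resting cells 9 of 321 were, a share of 2.80% (1.29 to 5.26) at a median of 4990 UMIs. The background was thus also the higher in the rescued library, and in each library its interval overlapped that of all cells.

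The libraries differed in which granzyme their cells used. Control cells held 208 Gzmb UMIs in 51 cells and 14 Gzma UMIs in 8 cells. Rescued cells held 626 Gzmb UMIs in 111 cells and 433 Gzma UMIs in 81 cells. Gzma therefore gave 6.31% (3.49 to 10.4) of the granzyme UMIs of the control and 40.9% (37.9 to 43.9) of those of the rescued library. Over all cells of a library, Gzma was at 0.906 CPM in the control and 27.9 CPM in the rescued cells, a log2 ratio of 4.94 (4.18 to 5.83). Gzmb was at 13.5 and 40.3 CPM, a log2 ratio of 1.58 (1.35 to 1.81). The share of control cells with a Gzma UMI was 0.220% (0.0951 to 0.433) beside 0.192% (0.0232 to 0.691) among control resting cells. Among rescued cells it was 2.39% (1.90 to 2.96) beside 0.935% (0.193 to 2.71). For Gzmb the shares were 1.40% (1.05 to 1.84) beside 0.671% (0.270 to 1.38) in the control and 3.27% (2.70 to 3.93) beside 1.87% (0.689 to 4.02) in the rescued library. The interval of each of these shares overlapped that of the resting cells of the same library. Resting cells are part of all cells, and such an overlap does not decide whether a share lay above background. By UMIs, control resting cells held 2 Gzma and 12 Gzmb among 5232300 UMIs. Rescued resting cells held 8 Gzma and 11 Gzmb among 1959875 UMIs.

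Most cells had a single granzyme. Of the control cells 49 had Gzmb only, 6 had Gzma only and 2 had both. Those 2 were 25% (3.19 to 65.1) of the 8 control cells with Gzma, while 1.40% (1.05 to 1.84) of all control cells held a Gzmb UMI. Of the rescued cells 103 had Gzmb only, 73 had Gzma only and 8 had both, which was 9.88% (4.36 to 18.5) of the cells with Gzma and 7.21% (3.16 to 13.7) of those with Gzmb. Of all rescued cells 3.27% (2.70 to 3.93) held Gzmb and 2.39% (1.90 to 2.96) held Gzma. Granzyme UMIs of one kind were thus not rarer among cells that held the other kind.

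**Figure D1:**
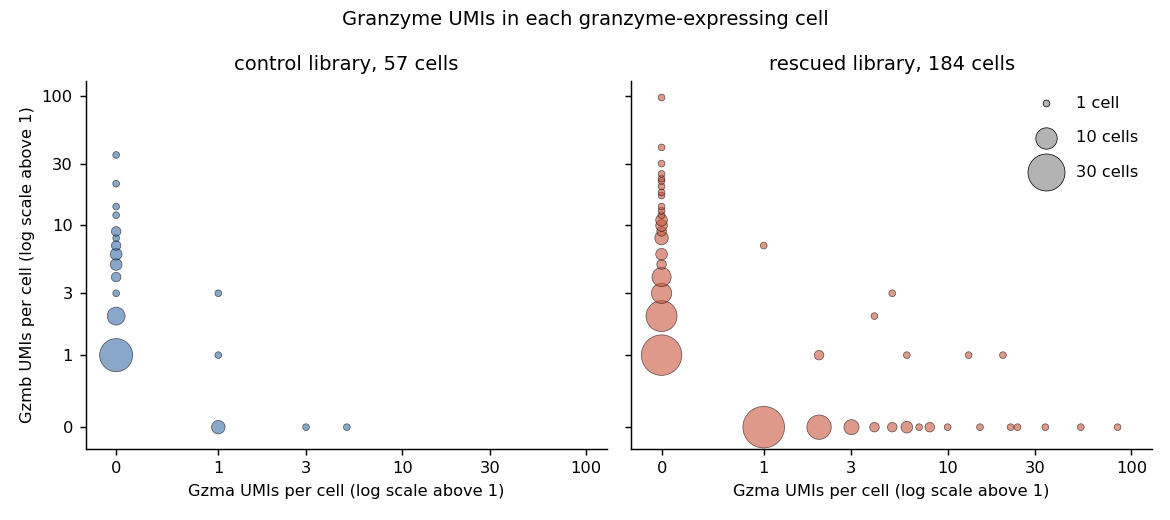
UMIs of Gzma (horizontal axis) and Gzmb (vertical axis) in each granzyme-expressing cell of the control (left) and rescued (right) library, both axes linear up to 1 and logarithmic above, with the area of a point in proportion to the number of cells at that position. Most points lie on an axis, since 2 of 57 control and 8 of 184 rescued cells held both granzymes, and the control library has 8 cells with a Gzma UMI.

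A few cells carried much of the signal. The highest Gzma count in 1 cell was 84 UMIs in the rescued and 5 in the control library, and the highest Gzmb counts were 97 and 35. The 5 highest cells held 50.1% of the rescued Gzma and 34.3% of the rescued Gzmb UMIs. At the other end, 28 of the 57 control cells and 74 of the 184 rescued cells held exactly 1 granzyme UMI and so lay just inside the threshold, with all cells at 0 just outside it. Another 13 control and 60 rescued cells held 2 to 4, and 16 control and 50 rescued cells held 5 or more. Granzyme-expressing cells were also deeper than the rest, at a median of 6197 against 3729 UMIs in the control and 4682 against 3813 in the rescued library.

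Treg markers were detected in the class in both libraries, some at higher and some at lower levels than in the other cells. Ikzf2, which encodes the Treg transcription factor Helios, was at 1888 against 1251 CPM in control granzyme-expressing cells and the other control cells, and at 1913 against 1642 CPM in the rescued library. Ctla4, an inhibitory receptor that Treg cells use in suppression, was at 390.2 against 264 CPM and at 705 against 473 CPM. Foxp3 itself was at 75.9 against 81.1 CPM in the control and at 578 against 460.1 CPM in the rescued library. A Foxp3 UMI was seen in 21 of 57 control and 145 of 184 rescued granzyme-expressing cells. The libraries carry different Foxp3 alleles, and whether transcripts of both were captured alike was not tested. Of 12 Treg identity genes, 0 were past 2-fold higher in either library. Their median log2 ratio was -0.05 in the control and 0.17 in the rescued library, and together they summed to 4989 against 4036 CPM and 7384 against 6224 CPM. Il2ra, the high-affinity IL-2 receptor chain, and Ikzf4, which encodes the transcription factor Eos, were lower in the control class, at log2 ratios of -0.48 (-0.83 to -0.16) and -0.50 (-0.94 to -0.10), with 0.12 (-0.03 to 0.26) and 0.09 (-0.12 to 0.30) in the rescued library. Lrrc32, which presents latent TGF-β at the Treg surface, and Gpr83, a receptor enriched in Treg cells, were past 2-fold lower in the control class, at log2 ratios of -1.18 (-1.99 to -0.47) and -1.14 (-1.93 to -0.46). In the rescued library 0 were lower.

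Markers of other cell types that make granzymes were at or near 0, apart from Cd8b1. Of 10 CD8 T and NK cell markers in the table, 9 were at 0 UMIs in the 57 control cells and 6 in the 184 rescued cells. Cd8a, Eomes and Klrd1 were at 0 in both, which allows a share of cells with a UMI of up to 5.26% in the control and 1.63% in the rescued class. The list summed to 31.4 CPM in control granzyme-expressing cells against 26.8 CPM in the others, and to 19.3 against 20.2 CPM in the rescued library. Cd8b1 gave all 12 of the control UMIs, in 9 cells, and 17 of the 21 rescued UMIs. A Cd8b1 UMI was seen in 15.8% (7.48 to 27.9) of the control class against 6.60% (5.81 to 7.46) of the other cells, and after thinning to 1000 UMIs in 5.26% (1.10 to 14.6) against 1.73% (1.33 to 2.22). At 2000 UMIs the direction turned, to 1.79% (0.0452 to 9.55) against 3.16% (2.61 to 3.79). Among rescued cells thinned to 1000 UMIs the shares were 1.09% (0.132 to 3.87) against 1.40% (1.03 to 1.87). The part of Cd8b1 in the results was not tested beyond leaving out the cells with such markers, as given in the closing section.

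Markers of γδ T cells summed to 0 UMIs in the control and 2 in the rescued class, and so did those of myeloid, dendritic and mast cells and basophils. Markers of B and plasma cells summed to 28.8 against 40.5 CPM in the control and 56.2 against 51.8 CPM in the rescued library, nearly all from Cd79b, with Ms4a1 and Jchain at 0 in the class. Scrublet doublet scores were not higher in the class, at medians of 0.0546 against 0.0651 in the control and 0.0739 against 0.0764 in the rescued library.

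The other genes of the killing machinery were mostly within 2-fold or too low to compare. Perforin (Prf1) held 4 UMIs in 57 control and 2 UMIs in 184 rescued cells, too few for a ratio. The remaining granzymes in the table, Gzmc, Gzmf, Gzmk and Gzmm, summed to 2 and 6 UMIs in the class. Gzmc gave all 6 of the rescued UMIs. Srgn, the serglycin on which granzymes are packed, was at 1922 against 1137 CPM in control cells, a log2 ratio of 0.76 (0.65 to 0.86). In rescued cells it was at 2060.0 against 1788 CPM, a log2 ratio of 0.20 (0.14 to 0.27). Ctsc, the protease that activates granzymes by trimming them, had log2 ratios of 0.54 (0.07 to 0.97) and 0.37 (0.09 to 0.64). Of the 16 listed granule and killing genes, 8 had enough UMIs in the control library, of which 1 was past 2-fold higher and 1 lower. Of 13 in the rescued library, 0 were past 2-fold in either direction. With a second filter, described below, 0 of 7 were past 2-fold higher and 1 lower in the control library. In the rescued library 0 of 13 were past 2-fold with it. Of all genes counted 1.67% were past 2-fold higher and 0.702% lower in the control class, and 0.512% and 0.286% in the rescued class.

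Nkg7, a granule protein of cytotoxic lymphocytes, was the control gene past 2-fold higher, and it had enough UMIs only through those in the class. It was at 291 against 38.0 CPM, a log2 ratio of 2.93 (2.63 to 3.23). These were 111 UMIs in 13 cells, of which 1 cell held 40.5%, and the log2 ratio without that cell was 2.25. Among rescued cells Nkg7 was at 30.4 against 25.5 CPM, a log2 ratio of 0.25 (-0.31 to 0.77). Ctsw, a cathepsin of cytotoxic cells, was lower in the control class, at 39.3 against 103 CPM, and was at 74.6 against 85.9 CPM in the rescued library.

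Granzyme-expressing cells were spread over several clusters and were most frequent in a few. Of 12 clusters made without Gzma and Gzmb, cluster 8 held 23 of the 57 control class cells (40.4%) against 3.35% of the other control cells. It held 54 of the 184 rescued class cells (29.3%) against 7.58% of the other rescued cells. The genes that led this cluster were Ccr10, Lgals3, Ccr3, Ube2c, Ccnb2 and Ccr2, among them homing receptors and mitotic genes. Cluster 9, led by Marcks, Ccr9 and Cxcr6, held 9 control and 33 rescued class cells. The granzymes were spread differently over these clusters in the rescued library, where cluster 8 held 46 cells with Gzmb and 11 with Gzma, and cluster 9 held 12 with Gzmb and 23 with Gzma. Cluster 2, led by Cnn3 and Ly6c1, held 28.2% of the other control cells and 3 of the 57 class cells.

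**Figure D2:**
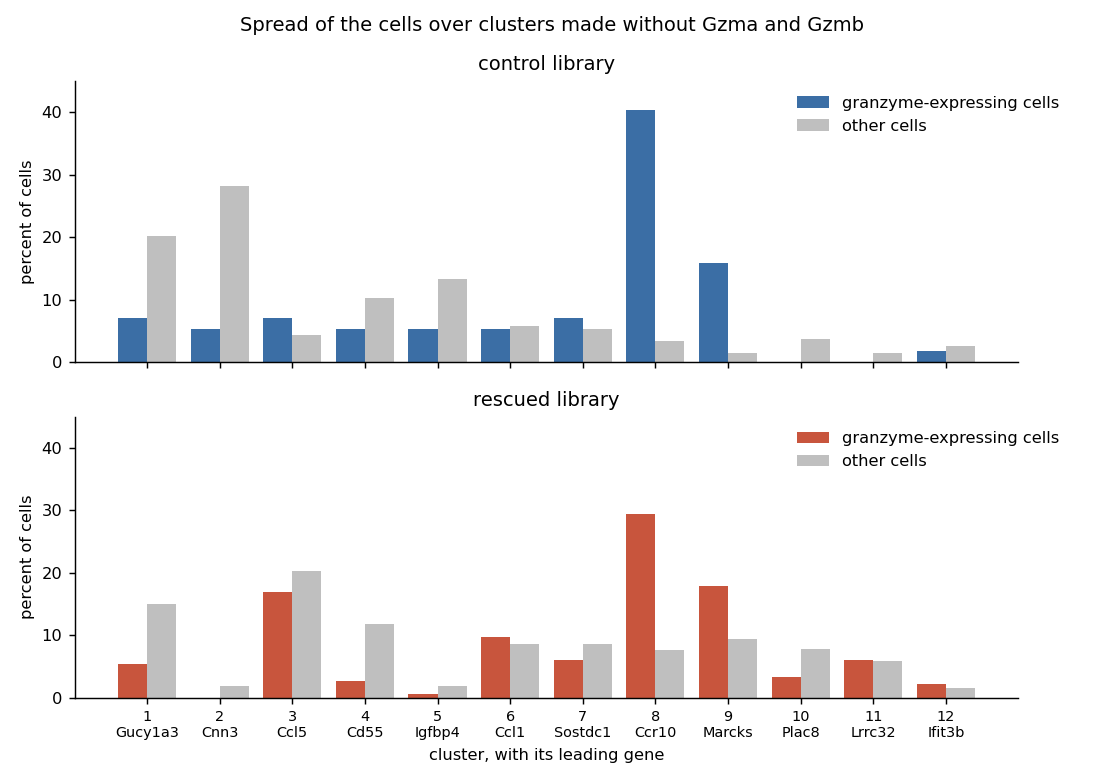
Percent of granzyme-expressing cells (coloured bars) and of all other cells (grey bars) in each of 12 clusters, for the control (top) and rescued (bottom) library, with the leading gene of each cluster under its number. Cluster 8 holds 40.4% of the control and 29.3% of the rescued granzyme-expressing cells, against 3.35% and 7.58% of the others.

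Among the 15 nearest neighbours of a granzyme-expressing cell, 12.7% on average were granzyme-expressing in the control library and 12.9% in the rescued. Around the other cells the mean was 0.949% and 3.99%. The share was higher around cells with more granzyme, at 5.48% around control cells with exactly 1 UMI, 13.8% at 2 to 4 and 24.6% at 5 or more. Around rescued cells these means were 9.01%, 12.0% and 19.7%.

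Compared with all other cells of their own library, the highest ratios in granzyme-expressing cells were those of Lgals3, Ccl5, Cxcr6 and Ccr2 in the control and of Ccr10, Lgals3, Ccr3 and Cxcr6 in the rescued library. In the control library 57 of 3417 genes (1.67%) were at least 2-fold higher and 24 (0.702%) at least 2-fold lower. In the rescued library 34 of 6646 (0.512%) were higher and 19 (0.286%) lower. There were 13 genes past 2-fold higher in both libraries, 22.8% of the control and 38.2% of the rescued genes. The 6 past 2-fold lower in both were 25.0% and 31.6%. Of the 34 rescued higher genes 13 had enough UMIs in both libraries and all of these were past 2-fold in both, while all 57 control genes had enough. Some of the shared genes, such as Lgals3, Cxcr6, Klrg1 and Ccr2, had enough in the control library only through their UMIs in the class. The agreement of the higher genes was thus partly set by the minimum. Of the 19 rescued lower genes 11 had enough in both, and 23 of the 24 control genes. The 19 shared genes were picked out after their values were seen.

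A gene could reach the minimum through its UMIs in the class. Some of the higher genes reached it only so, among them Lgals3 and Cxcr6 in both libraries. Klrg1, Ccr2, Fgl2 and Nkg7 did in the control, and Ccr10, Il10 and Mki67 in the rescued library. A second filter, chosen after the data were seen, took genes with at least 20 UMIs expected in the class at the pooled CPM of both sets of cells. With it 27 of 3390 control genes (0.796%) were at least 2-fold higher and 47 (1.39%) lower, and 19 (0.286%) and 27 (0.407%) of 6634 rescued genes. For the class against other cells, the counts of most lists are given with both filters. Between the libraries, and between Gzma and Gzmb cells, list counts use the first filter unless stated otherwise. The summed CPM of a list covers every member in the table.

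**Figure D3:**
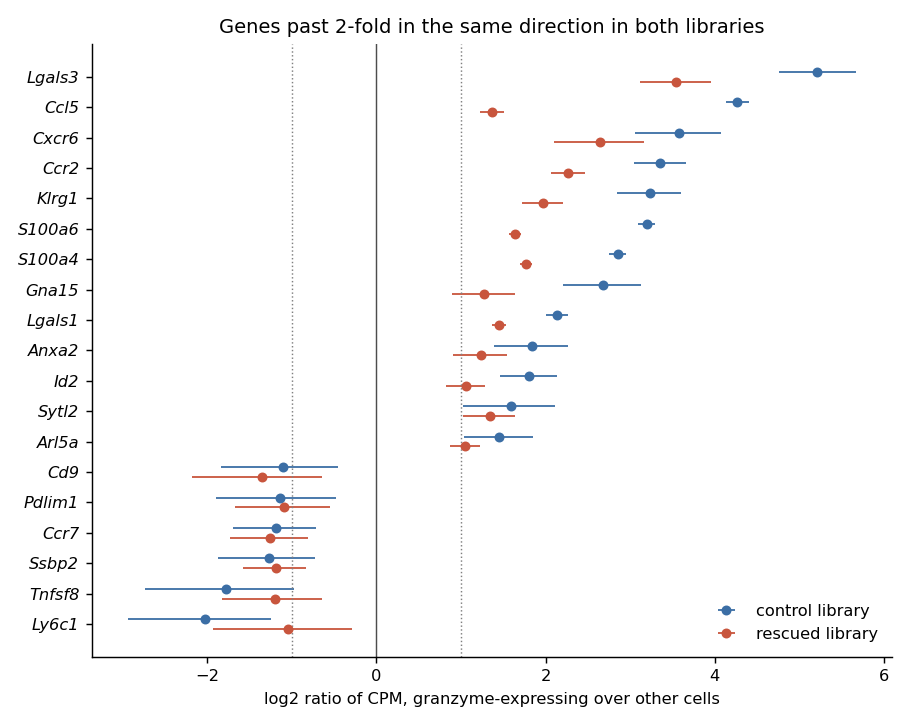
Log2 ratio of CPM of granzyme-expressing over other cells for the 13 genes past 2-fold higher and the 6 past 2-fold lower in both libraries, with 95% counting intervals as bars, control in blue and rescued in red. Lgals3 is the highest, at 5.21 in the control and 3.54 in the rescued library.

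The S100, annexin and galectin genes are known from motile and activated cells. Of the 9 with enough UMIs, 9 were past 2-fold higher in the control library, with a median log2 ratio of 1.76 beside 0.05 for all genes, and 4 of 9 in the rescued library, with a median of 0.94 beside 0.02. With the pooled filter 7 of 7 were higher in the control library (median log2 ratio 1.63 beside 0.01 for all genes) and 3 of 8 in the rescued (median 0.93 beside 0.00). The list summed to 13584 against 3821 CPM in the control and 10974 against 5544 CPM in the rescued library. Lgals3, which encodes the sugar-binding galectin-3, was at 209.5 against 5.64 CPM in control cells, a log2 ratio of 5.21 (4.76 to 5.67). Among rescued cells it was at 83.8 against 7.20 CPM, a log2 ratio of 3.54 (3.12 to 3.96). It was found in few cells, 16 of 57 and 22 of 184. S100a4, a calcium-binding protein of motile cells, was at 2367 against 328 CPM and at 1756 against 516 CPM, log2 ratios of 2.85 (2.75 to 2.96) and 1.77 (1.69 to 1.84). Its relative S100a6 was at 2506 against 273 CPM and at 1857 against 598 CPM, log2 ratios of 3.20 (3.09 to 3.30) and 1.63 (1.56 to 1.70). Anxa2, a membrane-binding annexin, had log2 ratios of 1.85 (1.39 to 2.27) and 1.23 (0.91 to 1.54), the second of which was 0.79 without 1 cell.

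Several chemokine receptors, which guide cells into tissues, were past 2-fold higher. Ccr2, the receptor for the monocyte chemoattractant Ccl2, was at 285 against 27.8 CPM in the control and at 264 against 54.9 CPM in the rescued library, log2 ratios of 3.36 (3.04 to 3.67) and 2.27 (2.07 to 2.46). Cxcr6, the receptor for Cxcl16, was at 115 against 9.63 CPM and at 42.4 against 6.78 CPM, log2 ratios of 3.58 (3.06 to 4.08) and 2.64 (2.10 to 3.16). Ccr10, a receptor for skin and mucosal chemokines, was at 80.1 against 4.08 CPM among rescued cells, a log2 ratio of 4.29 (3.80 to 4.80), from 16 cells. Of the control class 2 cells held 6 Ccr10 UMIs, under the limit for a ratio. Ccr3, the eotaxin receptor, had a log2 ratio of 3.48 (2.89 to 4.07) among rescued cells and was under the limit in the control library, with 11 UMIs in the class.

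Ccr9, the gut-homing receptor, was past 2-fold in the control library alone. It was at 107 against 22.8 CPM there, a log2 ratio of 2.23 (1.73 to 2.70), and at 103 against 110.2 CPM among rescued cells, a log2 ratio of -0.10 (-0.39 to 0.18). The levels in the class were close, and it was the level in the other cells that differed.

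Of 18 effector and tissue Treg genes, 11 had enough UMIs in the control library, and 6 of these were past 2-fold higher with a median log2 ratio of 1.23. Among rescued cells 4 of 16 were, with a median of 0.54. With the pooled filter 3 of 8 were higher in the control library (median log2 ratio 0.80 beside 0.01 for all genes) and 3 of 15 in the rescued (median 0.48 beside 0.00). The list summed to 3048 against 1184 CPM in the control and 3277 against 2133 CPM in the rescued library. Klrg1, a receptor of terminally differentiated effector cells, was at 194 against 20.6 CPM and at 162 against 41.4 CPM, log2 ratios of 3.24 (2.85 to 3.61) and 1.97 (1.72 to 2.21). Id2, a transcriptional inhibitor of effector lymphocytes, had log2 ratios of 1.81 (1.46 to 2.14) and 1.06 (0.82 to 1.29), the second of which was 0.97 without 1 cell. Maf, a transcription factor of effector T cells, was past 2-fold in the control library alone, at 1.59 (1.43 to 1.74) beside 0.43 (0.33 to 0.53) in the rescued. Itgae, which encodes the integrin CD103, was at 178 against 75.8 CPM and at 437 against 313 CPM, log2 ratios of 1.23 (0.86 to 1.59) and 0.48 (0.34 to 0.62).

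Among the suppressor molecules, 4 of 7 were past 2-fold higher in the control library, with a median log2 ratio of 1.14, and 3 of 11 in the rescued, with a median of 0.43. With the filter on the pooled level 3 of 6 were higher in the control library (median log2 ratio 0.68 beside 0.01 for all genes) and 2 of 10 in the rescued (median 0.32 beside 0.00). All members summed to 2915 against 1229.7 CPM in the control and 3228 against 1979 CPM in the rescued library. Lgals1, or galectin-1, was past 2-fold in both, at log2 ratios of 2.14 (2.0 to 2.27) and 1.45 (1.36 to 1.53). Fgl2, a secreted fibrinogen-like suppressor, was at 233 against 32.5 CPM in the control, a log2 ratio of 2.84 (2.50 to 3.17), and at 204 against 129.9 CPM in the rescued library, a log2 ratio of 0.65 (0.44 to 0.85). The costimulatory receptor Icos and the inhibitory receptor Lag3 were past 2-fold in the control library, at 1.14 (0.93 to 1.34) and 1.48 (1.10 to 1.83), the latter at 0.86 without 1 cell. Il10, an anti-inflammatory cytokine, was at 60.8 against 11.9 CPM among rescued cells, a log2 ratio of 2.35 (1.92 to 2.77). However, 1 cell held 40 of its 66 UMIs, and the log2 ratio without it was 1.03. Areg, an epidermal growth factor receptor ligand of tissue repair, had a log2 ratio of 1.18 (0.77 to 1.57) there, and 0.49 without 1 cell.

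Of the Th1-like genes 4 had enough UMIs in the control library, of which Ccl5, Cxcr3 and Il18r1 were past 2-fold higher. The pooled filter left 4, and these 3 were still past 2-fold, with Ccl5 alone of 5 in the rescued library. All Th1-like genes in the table summed to 2305 against 371 CPM in the control and 964 against 616 CPM in the rescued library. Ccl5, a chemokine that cytotoxic and effector T cells secrete, was at 1736 against 90.3 CPM in control cells, a log2 ratio of 4.27 (4.13 to 4.40). Among rescued cells it was at 431 against 167 CPM, a log2 ratio of 1.37 (1.22 to 1.51). Cxcr3, a receptor for interferon-induced chemokines, had log2 ratios of 1.49 (1.16 to 1.81) and 0.15 (-0.04 to 0.33). Tbx21, which encodes T-bet, held 7 and 9 UMIs in the class, and Ifng held 3 and 5, too few for a ratio.

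Of the resting genes in the control library 7 of 11 were at least 2-fold lower, with a median log2 ratio of -1.18, and in the rescued library 2 of 11, with a median of -0.31. The pooled filter gave 8 of 12 and 3 of 12. Resting genes together summed to 2022 against 3396 CPM in the control and 1392 against 1789 CPM in the rescued library. Ccr7, which brings resting cells into lymph nodes, was at 96.9 against 220.3 CPM and at 38.7 against 92.2 CPM, log2 ratios of -1.18 (-1.69 to -0.72) and -1.25 (-1.73 to -0.81). Ly6c1, a surface protein, was at 34.0 against 138 CPM and at 12.9 against 26.7 CPM, log2 ratios of -2.02 (-2.93 to -1.24) and -1.05 (-1.94 to -0.29). Tcf7, a factor of naive and stem-like T cells, had log2 ratios of -1.08 (-1.54 to -0.65) and -0.97 (-1.40 to -0.57). Bcl2, a survival factor, was at 212 against 607 CPM and at 166 against 311 CPM, log2 ratios of -1.52 (-1.85 to -1.20) and -0.91 (-1.13 to -0.69). Satb1, a chromatin organiser, was past 2-fold lower in the control class, at -1.25 (-1.75 to -0.79), and was at 0.18 (-0.09 to 0.45) in the rescued class.

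Other genes with the lowest ratios belonged to no list. Tnfsf8, which encodes CD30 ligand, was at 31.4 against 108 CPM in the control and 23.9 against 55.1 CPM in the rescued library, and Ssbp2 had log2 ratios of -1.27 (-1.88 to -0.73) and -1.19 (-1.58 to -0.83). Socs3, a brake on cytokine signalling, was lower in the control class, at 57.6 against 159.6 CPM, and was at 227 against 237 CPM among rescued cells. Gpm6b was the lowest gene in the rescued library, at 14.7 against 51.2 CPM and a log2 ratio of -1.80 (-2.61 to -1.09). Higher rescued genes outside the lists were Ltb4r1, a leukotriene receptor, at 2.46 (1.84 to 3.06), the protease gene Adam8 at 2.36 (1.83 to 2.86) and Lmna, a nuclear lamin, at 2.30 (1.81 to 2.76).

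Of 8 cycling genes with enough UMIs in the rescued library, Mki67 and Stmn1 were past 2-fold higher, at log2 ratios of 1.71 (1.24 to 2.17) and 1.68 (1.26 to 2.09), and 0 of 4 were in the control library. With the pooled filter Stmn1 alone of 7 was higher in the rescued library, and 0 of 4 in the control. Mki67 thus had enough UMIs only through the class. An Mki67 UMI was seen in 22 of 184 rescued class cells, or 12.0% (7.65 to 17.5), against 4.99% (4.26 to 5.80) of the others. The shares were 5.98% (3.02 to 10.4) against 1.47% (1.08 to 1.94) with cells thinned to 1000 UMIs. At 2000 they were 4.35% (1.90 to 8.39) against 2.30% (1.81 to 2.88), where the intervals overlapped. Mki67 was too low for a ratio in the control library, where 5 of 57 class cells held it. This was 8.77% (2.91 to 19.3) against 2.07% (1.63 to 2.59) of the other control cells. Thinning the control cells gave 0 of 57 against 0.447% at 1000 UMIs, and 5.36% (1.12 to 14.9) against 0.996% (0.695 to 1.38) at 2000. The lists of T cell receptor stimulation, IL-2 and STAT5, interferon response and dissociation stress genes had 0 counted members past 2-fold in either library. In the control library 3 of 13, 8 of 11, 8 of 10 and 7 of 10 members, in that order, had enough UMIs. In the rescued library 10 of 13, 11 of 11, 9 of 10 and 9 of 10 had. With the pooled filter Penk and Myc, 2 of 4 in the first list, were lower in the control class.

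Other cells of the same clusters shared part of this profile. When the other cells were weighted to the clusters of the class, 11 genes were past 2-fold higher and 2 lower in the control library, and 19 and 7 in the rescued. Of the 57 control genes 7 remained, among them Lgals3 at 2.30, Ccl5 at 3.43, Nkg7 at 2.46, Ccr9 at 2.07 and Fgl2 at 1.18. Of the 34 rescued genes 16 remained, among them Ccr10 at 2.64, Lgals3 at 2.01, Il10 at 2.21, Ccr3 at 2.09, Klrg1 at 1.24 and Ccl5 at 1.26. S100a4 was at 0.25 in the control and 0.66 in the rescued library under this weighting, and Ccr2 at 0.51 and 0.93. Ccr7 was at -0.05 and -0.69. Among rescued cells Mki67 was at 0.84 and Stmn1 at 0.52, each no longer past 2-fold. Icos at -0.31, Il18r1 at -0.21 and Lag3 at -0.13 turned direction in the control library. Weighting the other cells to the depth of the class instead gave 51 higher and 23 lower genes in the control and 33 and 18 in the rescued library.

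Within the class, levels differed with the granzyme count. Lgals3 was at 5.50 CPM in control cells with exactly 1 granzyme UMI, beside 5.64 CPM in the other cells, at 228 CPM with 2 to 4 and at 526 CPM with 5 or more. Among rescued cells it was at 58.8, 54.4 and 147 CPM. Ccr2 was at 77.0, 171 and 714 CPM in the control and at 209.8, 228 and 369.7 CPM in the rescued cells. These genes were thus highest in the cells with 5 or more granzyme UMIs in each library. Klrg1 followed, at 93.4, 137 and 401 CPM, and at 71.6, 133 and 303 CPM. Ccr7 was lowest in those cells, at 165, 79.7 and 0 CPM in the control and 46.1, 48.9 and 18.3 CPM in the rescued cells. Foxp3 showed no such order, at 87.9, 56.9 and 71.4 CPM in the control and 512, 642 and 587 CPM in the rescued cells.

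Rescued cells with Gzma only and with Gzmb only had different profiles. Of 3182 genes, 29 (0.911%) were at least 2-fold higher and 30 (0.943%) at least 2-fold lower in the 73 cells with Gzma only than in the 103 with Gzmb only. The S100, annexin and galectin genes that were high in the class were the lower in its Gzma cells, 6 of 9 past 2-fold with a median log2 ratio of -1.59. S100a4 was at 168 CPM in the Gzma and 2600.2 CPM in the Gzmb cells, with 516 CPM in the other rescued cells, a log2 ratio of -3.95 (-4.36 to -3.58). Lgals3 held 2 UMIs in the Gzma and 84 in the Gzmb cells, a log2 ratio of -4.39 (-7.45 to -2.49). The cytoskeletal gene Vim and the LIM-domain gene Crip1 were at 735 against 2122 CPM and at 691 against 2085 CPM.

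Of the receptors described above, Ccr9 was higher and Ccr2 and Ccr10 were lower in the Gzma cells. Ccr9 was at 260.4 CPM in the Gzma and 31.7 CPM in the Gzmb cells, a log2 ratio of 3.04 (2.35 to 3.78). Ccr2 was at 55.0 against 373 CPM, a log2 ratio of -2.76 (-3.52 to -2.09). Ccr10 had 0 UMIs in the 73 Gzma cells and 87 UMIs in 16 of the Gzmb cells, so it was at least 14.4-fold lower, with 3 UMIs taken as the limit of a count of 0. S1pr1, the receptor by which T cells leave lymph nodes, was at 26.0 against 105 CPM, a log2 ratio of -2.01 (-3.20 to -1.01). The Gzma cells were higher in Lrrc32, at 350.1 against 117 CPM and a log2 ratio of 1.59 (1.17 to 2.01), and in Asb2 and Art2b, at 1.81 (1.19 to 2.45) and 2.44 (1.48 to 3.48). The chemokine gene Cxcl10 was at 185 against 27.4 CPM, a log2 ratio of 2.76 (2.0 to 3.58), which was 1.91 without 1 cell.

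Ikzf2 and Foxp3 were within 2-fold between them. Ikzf2 was at 1938 CPM in the Gzma and 1886 CPM in the Gzmb cells, a log2 ratio of 0.04 (-0.10 to 0.17), and Foxp3 at 498 against 623 CPM, a log2 ratio of -0.33 (-0.59 to -0.07). The Gzma cells were shallower, at a median of 4004 against 5279 UMIs, and the part of this in the ratios was not tested.

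**Figure D4:**
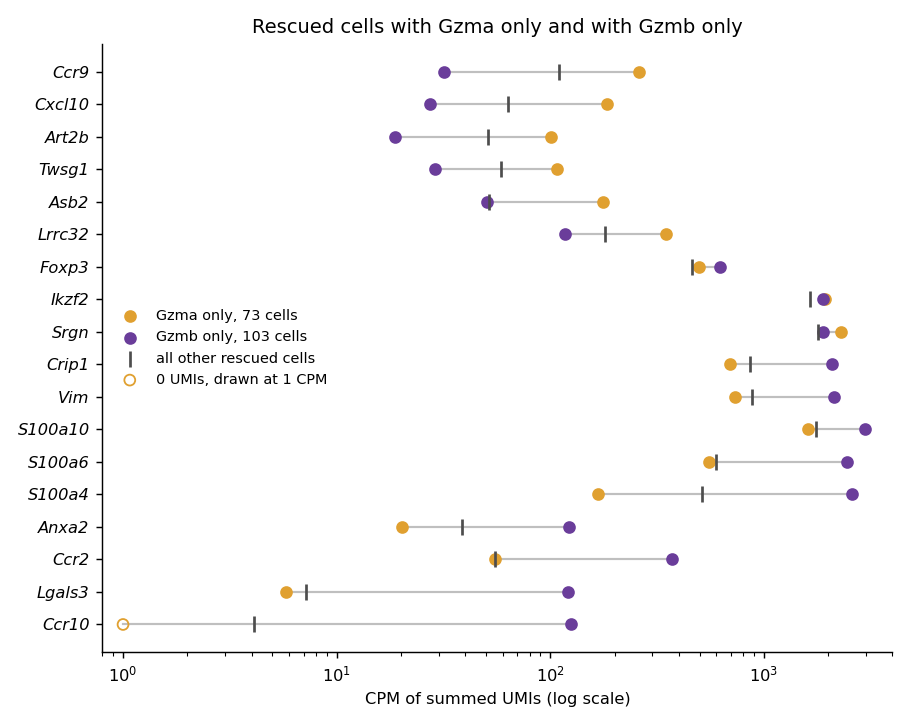
CPM of summed UMIs, on a logarithmic axis, of 18 genes in rescued cells with Gzma only (orange), rescued cells with Gzmb only (purple) and rescued cells without a granzyme UMI (dark ticks), where an open circle marks 0 UMIs and is drawn at 1 CPM. S100a4 is at 168 CPM in the Gzma and 2600.2 CPM in the Gzmb cells, Ccr9 at 260.4 and 31.7 CPM, and Ikzf2 and Foxp3 lie close together.

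In the control library the same comparison rested on 6 cells with Gzma only against 49 with Gzmb only, and 305 genes had enough UMIs, of which 9 (2.95%) were higher and 5 (1.64%) lower. The highest were the integrin gene Itga4 and the interferon-induced genes Bst2 and Isg15, at log2 ratios of 2.0 (1.35 to 2.64), 1.94 (1.35 to 2.52) and 1.77 (1.11 to 2.41), the last at 0.89 without 1 cell, followed by Ccl5 at 1.55 and the TdTomato reporter at 1.35. For Ccl5, 1 cell held 157 of the 199 UMIs, and the log2 ratio without it was -0.30. The lowest were Eef1d, Vim, Npm1, Eif5a and Eef1g. S100a4 was at 1861 against 2363 CPM in these cells. Whether the libraries differ in this comparison was not tested.

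Between the libraries, 164 of 6605 genes (2.48%) were at least 2-fold higher and 152 (2.3%) at least 2-fold lower in rescued than in control granzyme-expressing cells. The other cells had 274 (2.55%) and 168 (1.56%) of 10762. Intervals left out 0 for 98 of the 164 and 108 of the 152. The make-up of the class differed as well, since 73 of 184 rescued and 6 of 57 control cells had Gzma only.

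**Figure D5:**
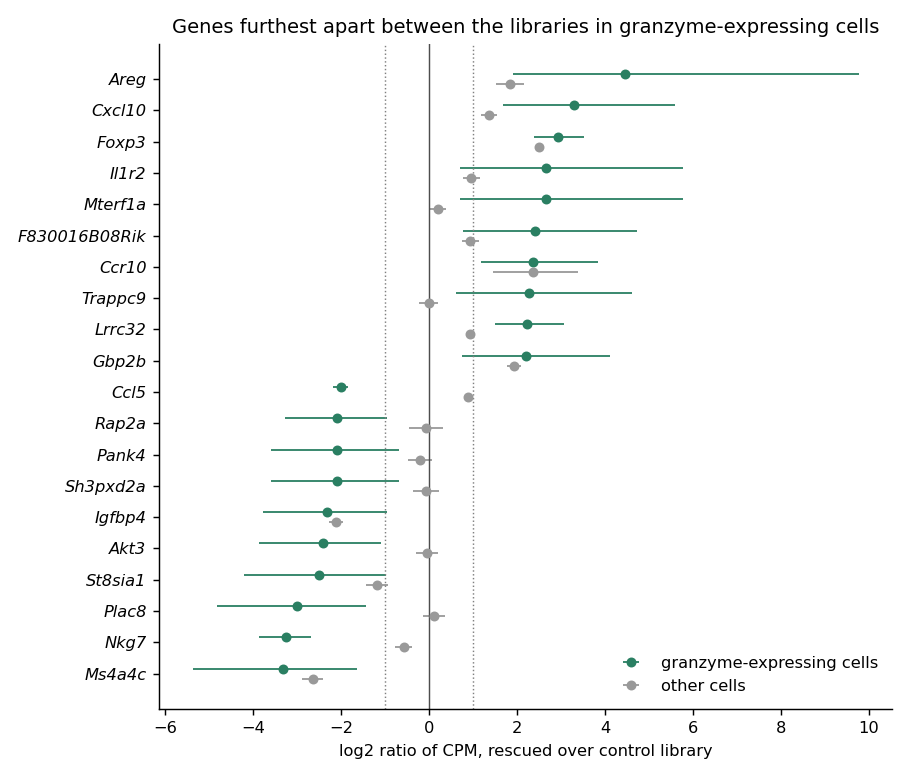
Log2 ratio of CPM of the rescued over the control library for the 10 highest and 10 lowest genes in granzyme-expressing cells (green) and the same genes in all other cells (grey), with 95% counting intervals as bars. Foxp3 lies at 2.93 and 2.50, whereas Ccl5 lies at -2.01 in the granzyme-expressing and 0.89 in the other cells.

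Foxp3 was at 578 CPM in rescued and 75.9 CPM in control granzyme-expressing cells, a log2 ratio of 2.93 (2.39 to 3.52), and the other cells showed a log2 ratio of 2.50 (2.42 to 2.59). Lrrc32 was at 197 against 41.9 CPM, a log2 ratio of 2.23 (1.50 to 3.07), beside 0.94 (0.84 to 1.03) in the other cells. Of 12 Treg identity genes 2 were thus past 2-fold higher in the rescued class, with a median log2 ratio of 0.84, and 1 of 12 in the other cells, with a median of 0.50. Il2ra was at 388 against 202 CPM, a log2 ratio of 0.94 (0.59 to 1.31), beside 0.35 (0.29 to 0.41). The TdTomato reporter was at 689.7 against 492 CPM, a log2 ratio of 0.49 (0.25 to 0.72), beside 0.77 (0.72 to 0.82).

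Of 11 suppressor molecules Areg, Il10 and Ebi3 were past 2-fold higher in the rescued class, with a median of 0.43. In the other cells 5 of 12 were, with a median of 0.82. Areg held 62 UMIs in 13 rescued class cells and 1 UMI in the control class, a log2 ratio of 4.45 (1.91 to 9.77), which was 3.76 without the 1 cell that held 24 of them. Il10 had a log2 ratio of 1.95 (0.75 to 3.45), and 0.63 without 1 cell. Cxcl10 held 83 and 3 UMIs, a log2 ratio of 3.28 (1.69 to 5.59), and 2.67 without 1 cell. Most of these ratios thus rest on few molecules in the control class. Ccr10 was at 80.1 against 15.7 CPM, a log2 ratio of 2.35 (1.17 to 3.84), and the other cells showed 2.36 (1.45 to 3.39). Il1r2, the decoy IL-1 receptor, held 36 and 2 UMIs, a log2 ratio of 2.66 (0.70 to 5.76). Socs3 was at 227 against 57.6 CPM, a log2 ratio of 1.98 (1.35 to 2.68), beside 0.57 (0.49 to 0.64) in the other cells.

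The cytotoxic gene Nkg7 and the chemokine gene Ccl5 were lower in the rescued class. Nkg7 was at 30.4 CPM in the rescued and 291 CPM in the control class, a log2 ratio of -3.26 (-3.87 to -2.69), beside -0.58 (-0.77 to -0.38) in the other cells. Without the 1 control cell with the most Nkg7 UMIs it was -2.58. Ccl5 was at 431 against 1736 CPM, a log2 ratio of -2.01 (-2.18 to -1.84), whereas in the other cells it was higher in the rescued library, at 167 against 90.3 CPM and a log2 ratio of 0.89 (0.79 to 0.98). The granzyme B inhibitor Serpinb9 and its relative Serpinb6b had log2 ratios of 1.40 (-0.11 to 3.37), an interval that holds 0, and 1.53 (0.19 to 3.22). Cxcr6 was at 42.4 against 115 CPM, a log2 ratio of -1.44 (-2.07 to -0.81). Ms4a4c held 4 and 14 UMIs and Plac8 5 and 14, of which 11 of the Plac8 control UMIs were in 1 cell.

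Resting genes were lower in the rescued class, 6 of 12 past 2-fold with a median log2 ratio of -0.97, as they were in the other cells, where 8 of 13 were past 2-fold with a median of -1.21. With the pooled filter 4 of 10 were past 2-fold lower in the rescued class, with a median of -0.61. Ccr7 had log2 ratios of -1.33 (-2.0 to -0.65) and -1.26 (-1.35 to -1.16). Klf2, a factor of quiescence and recirculation, had -1.07 (-1.30 to -0.85) and -1.08 (-1.12 to -1.03). Satb1 was at 0.22 (-0.31 to 0.78) in the class and -1.21 (-1.30 to -1.12) in the other cells. Igfbp4 was at -2.32 in the class, but 12 of its 14 control UMIs were in 1 cell. Of the dissociation stress genes 3 of 10, Fosb, Hspa1a and Hspa1b, were past 2-fold lower in the rescued class, Hspa1a at -0.55 without 1 cell, and 1 of 10 in the other cells. With the pooled filter 2 of 9, Hspa1a and Hspa1b, were past 2-fold lower in the rescued class.

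Several genes that were high in granzyme-expressing cells of both libraries were within 2-fold between them. S100a4 had a log2 ratio of -0.43 (-0.55 to -0.32) and S100a6 of -0.43 (-0.54 to -0.32) in the class, beside 0.66 and 1.13 in the other cells. Klrg1 had -0.26 (-0.66 to 0.15) and Ccr2 -0.11 (-0.43 to 0.22) in the class, and 1.01 and 0.98 in the other cells. Fgl2, past 2-fold higher than in the other cells in the control library alone, had -0.20 (-0.56 to 0.18) in the class and 2.0 (1.86 to 2.15) in the other cells.

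When the comparison was limited to cells with Gzmb and no Gzma, 49 control and 103 rescued, 117 genes were past 2-fold higher and 103 lower. Foxp3 had a log2 ratio of 3.05 (2.46 to 3.71), Nkg7 -2.77 (-3.39 to -2.18), Ccl5 -1.40 (-1.59 to -1.20) and Lrrc32 1.31 (0.50 to 2.21). S100a4 was at 0.14 (0.01 to 0.26) in place of -0.43 and so turned direction. S100a6 was at 0.10 (-0.03 to 0.23) and Ccr2 at 0.22 (-0.11 to 0.57), each with an interval that holds 0. Klrg1 was at -0.19 (-0.63 to 0.26) and Fgl2 at -0.18 (-0.57 to 0.21). Cxcr6, past 2-fold lower in the whole class, was at -0.65 (-1.35 to 0.07) and no longer past it, and neither were Klf2 at -0.78 (-1.03 to -0.52) and Lgals3 at -0.84 (-1.31 to -0.36). This restriction was chosen after the data were seen.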

How the data were processed

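Counts of UMIs were deposited by the authors for 7024 cells and 16098 genes, as whole numbers without normalization. Per the labels and the study's methods, reads of 10x Chromium 3′ v3 libraries were processed with Cell Ranger 3.0 against GRCm38 with the tdTomato sequence added. The submitters' processing notes also name Seurat 3.1.5. A table of normalized values was not used. The deposited cells equal in number those that the study kept. Cells were assigned to the control or rescued library by the library prefix of their names. The class held cells with at least 1 summed Gzma and Gzmb UMI. The members and gene lists were chosen with earlier results of these data known.

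UMIs were summed over cells of a class within a library and scaled to CPM. Ratios carry conditional exact 95% intervals, shares Clopper-Pearson intervals. A gene was counted where its UMIs in the first set, plus those expected there at the other set's CPM, reached 40, and a count of 0 was taken as 3 UMIs. With 1 library per group no test was run. Gzma and Gzmb were left out of all gene counts, and 17 gene lists were described by counts and medians. Named genes were the 10 highest and 10 lowest ratios per comparison (5 each way between Gzma and Gzmb cells, without mitochondrial, ribosomal, immunoglobulin and T cell receptor genes), list genes and tdTomato. Not every gene under this rule is reported here.

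Clusters (Leiden, resolution 1) and 15 nearest neighbours within a library used 30 principal components of 2000 variable genes, made without Gzma and Gzmb. Doublets were scored with Scrublet and kept, and their removal was an alternative. The study's methods state that cells over 5% mitochondrial transcripts were removed, but 6859 of the 7024 deposited cells were over 5% of UMIs and 2547 over 10%. No further filter was applied. Genes with close relatives, such as the granzymes beside Gzmb, were taken as counted. The gene comparison was tested on simulated data. Alternatives changed the floor, scaling, depth, clusters, cells left out and the weight of a cell. Tools were Python 3.11.15, numpy 2.4.6, scipy 1.17.1, pandas 2.3.3, scanpy 1.11.5, scikit-learn 1.9.0 and leidenalg 0.10.2.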

Additional observations from a re-analysis of the deposited data

How the results depend on the processing

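No paired analysis was possible because the groups had a single library each. Precision was limited by the 57 control cells and by genes with few UMIs, and for the control Gzma cells by their number of 6. The minimum of 40 UMIs set the number of genes considered and with it every count. With 20 UMIs, 127 genes were past 2-fold higher and 82 lower in the control class, 75 and 62 in the rescued class, 374 and 296 between the libraries, 28 and 14 between control Gzma and Gzmb cells, and 113 and 101 between rescued ones. With 100 UMIs these counts were 23 and 7, 12 and 6, 32 and 23, 2 and 3, and 5 and 9. Filtering on at least 20 UMIs expected at the pooled level, chosen after the data were seen, gave 27 and 47 in the control class, 19 higher in the rescued class, 93 lower between the libraries and 5 higher between control Gzma and Gzmb cells.

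With only cells that held a Foxp3 UMI, they were 16 and 5 in the control class, 362 and 320 between the libraries, 4 and 2 between control and 17 and 17 between rescued Gzma and Gzmb cells. Weighting every cell equally, chosen after the data were seen, gave 38 lower genes in the control class and 255 higher between the libraries. Weighting the other cells to the clusters of the class gave 11 and 2 in the control and 19 and 7 in the rescued library. Under it Icos (-0.31), Il18r1 (-0.21) and Lag3 (-0.13) changed sign in the control library. Without cells that held a CD8 or NK marker UMI, 3 genes were lower between control Gzma and Gzmb cells, and the Gzma share of rescued granzyme UMIs was 44.8%.

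The share of granzyme-expressing cells was 0.605% and 2.57% (control and rescued) with cells thinned to 1000 UMIs, 1.04% and 4.02% at 2000, 0.798% and 3.24% at 2 or more granzyme UMIs, and 2.15% and 7.07% without cells over 10% mitochondrial UMIs. With a Foxp3 UMI required it was 2.20% and 5.96%. The rescued share was the higher under each of these. The Gzma share of granzyme UMIs was 2.50% and 46.8% at 2000 UMIs per cell, and 37.6% in rescued cells with a Foxp3 UMI. The mean neighbour share was 7.49% and 10.1% after thinning, and 10.5% in the control library with 30 neighbours.

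Leaving out the cell with the most UMIs of a gene, chosen after the data were seen, took 25 of 144 values past 2-fold below it. It turned Igfbp4 between the libraries to 0.45 and Ccl5 between control Gzma and Gzmb cells to -0.30. Of results that answer a comparison, 92 values stayed close under the alternatives and 56 moved. These results were counts and shares, for which no change of sign was possible.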
